A study of Mus musculus with 6 samples.

Results

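The 39 genes described here encode the machinery that builds autophagosomes, the receptors that load them, the lysosome that digests their contents, and 2 transcription factors that regulate lysosomal genes. They were chosen by name, with earlier results of these data known. All 39 symbols were mapped to one of the 27179 Entrez gene IDs in the count files. By role, 25 were grouped as autophagosome members, 12 as lysosome members and 2 as regulators. RNA-seq was run on muscle satellite cells, which are stem cells that rebuild muscle fibres, and the study set cells of obese mice against those of lean mice. All mice were wild type (WT) of the C57Bl/6N background, and 3 libraries came from the high-fat diet and 3 from the chow diet. The cells were sorted by flow cytometry and ribosomal RNA was depleted. The sources used here do not give age, sex or length of the diet, nor whether each library had its own animal, so a p-value here covers only the variation among libraries, technical variation included.

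In macroautophagy a membrane closes around cytoplasm, damaged mitochondria or protein aggregates and then fuses with a lysosome, where acid hydrolases break the cargo down. The Ulk kinase complex starts the process, a lipid kinase complex containing Becn1 and Atg14 marks the site, and a ubiquitin-like conjugation system attaches ATG8 proteins (the LC3 and Gabarap families) to the growing membrane. Satellite cells are known to need autophagy to stay quiescent and to supply energy when they are activated, and mTORC1, which sits on the lysosome, holds autophagy down when nutrients are plentiful.

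Gene counts summed to between 14930394 and 18217818 per library. Markers of satellite cells (10 genes) summed to between 4188 and 5294 CPM with the high-fat diet and between 4513 and 5419 CPM with chow, where CPM are counts scaled to a common library size, adjusted by TMM (trimmed mean of M values). Of the 10, 5 had a positive and 5 a negative log2 fold change for the high-fat diet over chow, and 0 passed an adjusted p of 0.05 in edgeR. At an unadjusted p under 0.05 there were 2 higher (Itga7 and Chrdl2) and 3 lower (Pax7, Myod1 and Fgfr4). Together these were 50%, against 7.65% of all genes tested. The markers were at 67.3 CPM or more in every library and the background covers genes of all levels, so the shares are not matched for level. The ranges of the 2 diets were separate for 4 of the 10 (40%), against 15.3% of all genes tested. Pax7, the defining transcription factor, was at 171, 247 and 283 CPM with the high-fat diet and at 370, 405 and 430 CPM with chow, lower in every high-fat diet library. Itga7, the integrin chain often used to sort these cells, was at 404, 381 and 322 CPM against 260, 193 and 280 CPM, higher in every high-fat diet library. Macrophages are rich in lysosomes, and 9 of their 12 markers had a mean below 1 CPM. Together the 12 summed to between 8.09 and 26.7 CPM with the high-fat diet and between 18.9 and 49.0 CPM with chow. Adgre1, C1qa and Tyrobp were at 0 in all 6 libraries. Cd68 was seen in every library, at 17.5, 10.3 and 6.31 CPM with the high-fat diet and at 21.1, 15.6 and 31.0 CPM with chow. Lyz2 reached 17.5 CPM in chow library 3, and Csf1r 7.72 CPM in chow library 1. Summed markers of endothelial cells lay between 219 and 332 CPM with the high-fat diet and 228 and 292 CPM with chow. The sum hides differences between its 6 genes, of which 2 had a positive and 4 a negative log2 fold change. Tek, the largest, was at 105 to 216 CPM. Pecam1 and Cdh5 were at 4.94 and 6.63 CPM in high-fat diet library 1 and at 22.3 CPM or more in every other library. Kdr was at 24.3, 23.8 and 39.3 CPM with the high-fat diet and at 11.9, 13.7 and 7.29 CPM with chow. Summed markers of fibro-adipogenic progenitors lay between 136 and 277 CPM with the high-fat diet and between 154 and 168 CPM with chow. Most of this sum was Dcn, at 103 to 191 CPM, while Pdgfra was at most 8.28 CPM. The highest sum was that of high-fat diet library 1, where Dcn, Lum (26.9 CPM) and Pi16 (14.9 CPM) were each at their highest. The 6 myofibre markers summed to at most 32.3 CPM, and the 5 adipocyte markers to between 42.7 and 120 CPM with the high-fat diet and 42.5 and 104 CPM with chow. Plin1 and Lep were at 0 throughout, and most of the adipocyte sum was Fabp4, which endothelial cells also express. The part of these markers and of the other cells in the results was not tested. Of all pairs of libraries, high-fat diet library 1 and chow library 3 differed most in their counts, so the members' median is also given without both. Since these are bulk samples, fewer cells of a type and less RNA per cell cannot be told apart.

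Of the 39 genes 0 passed an adjusted p of 0.05 (edgeR, quasi-likelihood F test, adjusted over all genes by Benjamini-Hochberg). Over all 13202 genes tested 34 passed, a background of 0.258%, made up of 0.0909% with higher and 0.167% with lower levels on the high-fat diet. DESeq2 also called 0 members, with a background of 1.96% (0.816% higher, 1.14% lower), and so did limma-voom, with a background of 0.75% (0.333% higher, 0.417% lower). At an adjusted p under 0.1 edgeR again called 0, with a background of 0.379%. At an unadjusted p under 0.05 there were 4 members, or 10.3% against a background of 7.65%. These were Atg2a and Ctsb, with higher means on the high-fat diet (background 3.7%), and Sqstm1 and Ctsl, with lower means (background 3.95%). DESeq2 also had 4 members at that level and limma-voom 3. Their number was 1 without high-fat diet library 3 or without chow library 1, 2 without high-fat diet library 1, and 3 or 4 without any 1 of the others. The ranges of the 2 diets were separate for 7 members (17.9%, background 15.3%). These were Atg14, Atg2a, Wipi1, Optn, Ctsb and Ctsd, with higher values on the high-fat diet (background 7.42%), and Sqstm1, with lower ones (background 7.87%). Over both directions together, the shares of all members at an unadjusted p under 0.05 and without overlap thus lay near the background. By direction, the 7 members without overlap were 6 higher and 1 lower. All 4 members at an unadjusted p under 0.05 had a mean over 50 CPM, while the background covers genes of all levels.

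**Figure D1:**
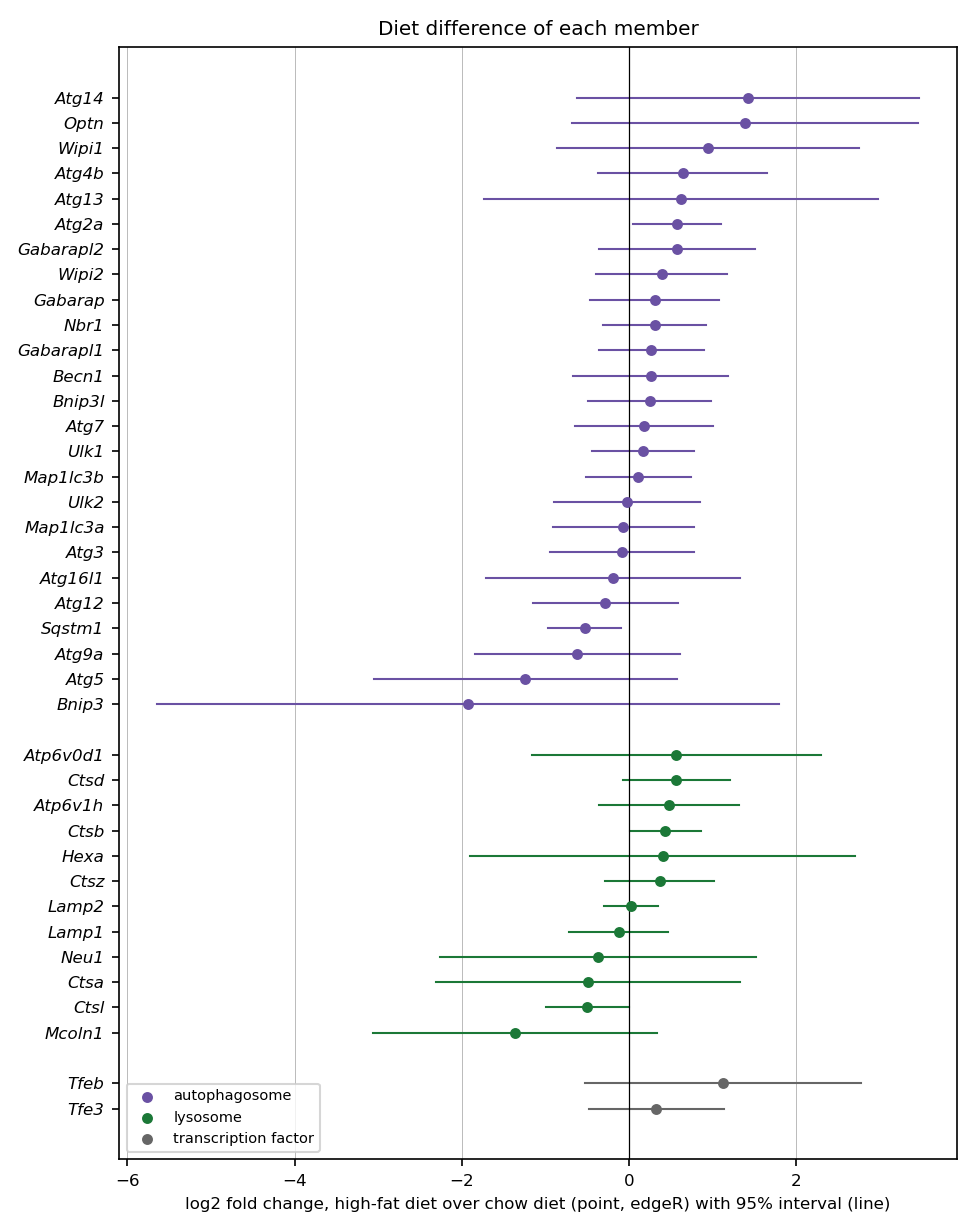
Log2 fold change (edgeR, high-fat diet over chow) of each of the 39 genes, with points for the estimate, lines for the 95% interval, and colours for autophagosome members, lysosome members and the transcription factors. The interval includes 0 for 35 of the 39 genes and is widest for Bnip3.

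The median log2 fold change of the members was 0.26, with 25 positive and 14 negative values, and that of all genes tested was -0.0081, with 49.5% positive. Without high-fat diet library 1 and chow library 3 the members' median was 0.059. Relative to each gene's mean over the 6 libraries, the members' median log2 CPM was highest in the first (0.29). It was lowest in the second (-0.21). Leaving out both therefore favours a smaller median and is no independent check. Intervals showed how far single genes were pinned down. For 13 members the 95% interval of the log2 fold change lay wholly between -1 and 1, so that a change of 2-fold or more in either direction fell outside it. Lamp2, Sqstm1, Lamp1, Map1lc3a, Map1lc3b and Ulk1 were among these 13. The SE depended on the level. It ran from 0.15 to 0.34 for the 13 members with a mean over 50 CPM, from 0.36 to 0.47 for the 12 between 20 and 50 CPM, and from 0.57 to 1.73 for the 14 under 20 CPM.

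Levels per length, in CPM per kilobase of the longest transcript paired with RefSeq, spanned a wide range. Sqstm1, the selective autophagy receptor also called p62, was the most abundant member at 241 ± 66.2 (SD, n = 6 libraries of both diets). Lamp2, a major glycoprotein of the lysosomal membrane, followed at 121 ± 6.03, and the protease gene Ctsl at 76.4 ± 20.5. The ranges of these 3 genes over the libraries did not overlap, from 140 to 343 for Sqstm1, 114 to 129 for Lamp2 and 51.8 to 101 for Ctsl. The next 10 genes, from Ctsz at 38.0 to Ctsd at 23.7, overlapped each other within their spread. They included Ulk1 at 32.3, Ctsb at 29.9, Lamp1 at 27.4 and all 5 ATG8 genes. The lowest were Atg14 at 2.48, Bnip3 at 1.61 and Atg13 at 1.60. Length matters most for Ctsl, Wipi1, Map1lc3b and Tfeb, whose annotated exons together are over 1.5 times as long as that transcript. Over all exons the level of Ctsl would be 24.4.

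**Figure D2:**
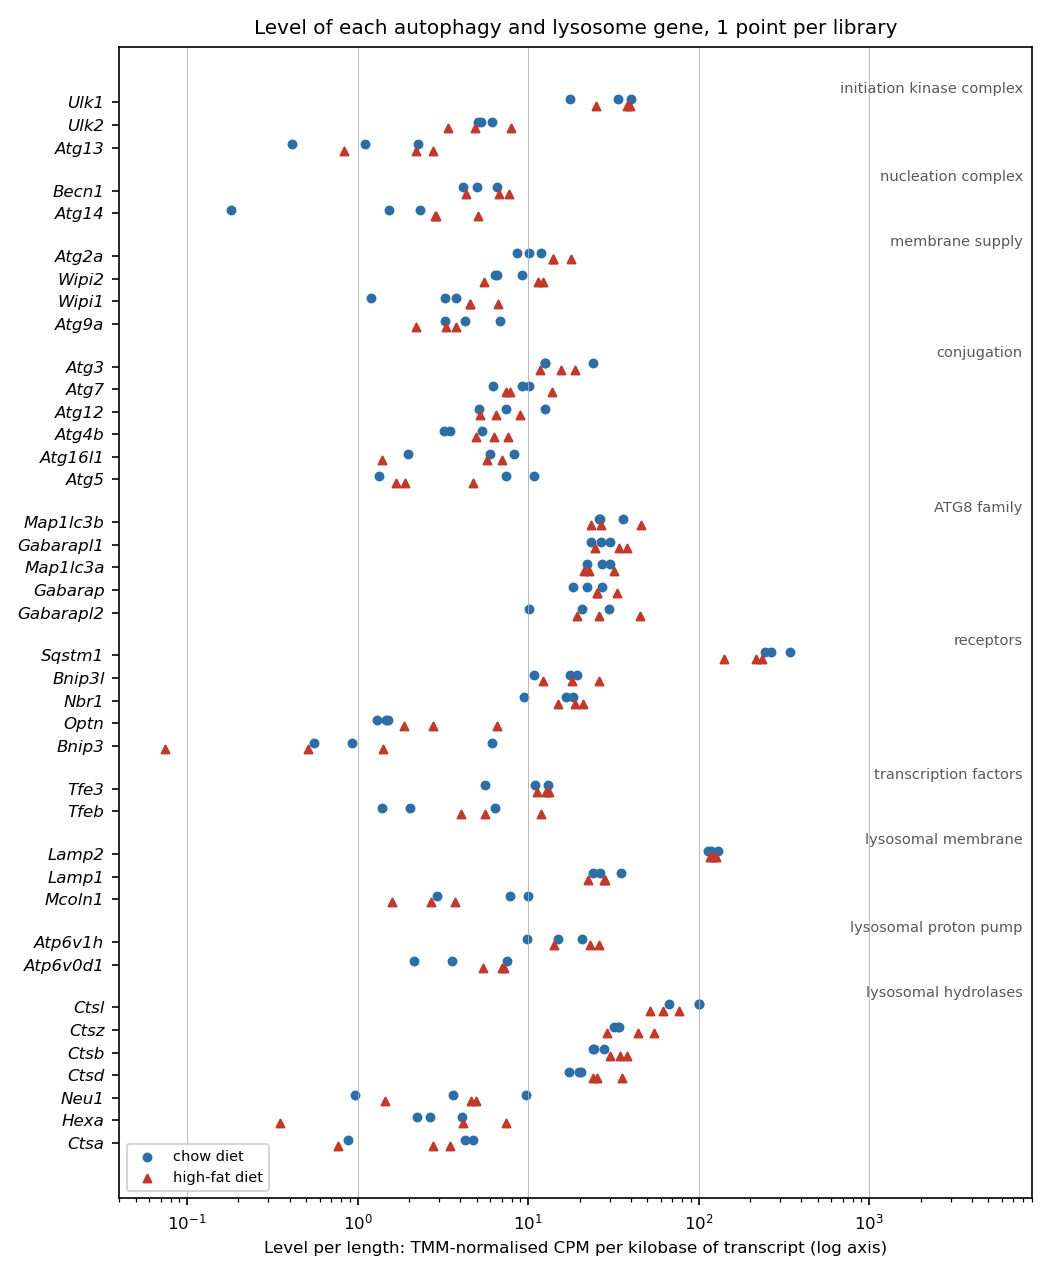
Level of each gene per kilobase of transcript on a log axis, 1 point per library, with circles for chow and triangles for the high-fat diet, grouped by role. Sqstm1 and Lamp2 lie to the right of all other genes, and the points of both diets are intermixed for most genes.

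The initiation complex is the entry point of the pathway, where the kinases Ulk1 and Ulk2 act with the adaptor Atg13. Ulk1 was at 130, 199 and 205 CPM in high-fat diet libraries 1, 2 and 3 and at 209, 175 and 91.4 CPM in chow libraries 1, 2 and 3. The lowest value of either diet was that of chow library 3, and the diets overlapped. The log2 fold change was 0.17 (95% interval -0.44 to 0.77, edgeR adjusted p = 0.994). Ulk1 prevailed over its paralogue per length in every library, with a ratio to Ulk2 from 3.45 to 7.81. Ulk2 had a log2 fold change of -0.027 (SE 0.41) and Atg13 one of 0.62 (SE 1.10).

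Becn1 and Atg14 are subunits of the lipid kinase complex that makes the phosphoinositide signal of the nascent autophagosome. Becn1 was at 33.8, 29.6 and 18.9 CPM with the high-fat diet and at 18.1, 28.8 and 21.9 CPM with chow, and the diets overlapped (log2 fold change 0.26, interval -0.67 to 1.19). Atg14, which directs the complex to autophagy, was at 17.6, 9.85 and 9.92 CPM with the high-fat diet and at 0.628, 5.25 and 8.04 CPM with chow. All 3 high-fat diet values lay above all 3 chow values, yet the chow values spread over more than a factor of 10, since chow library 1 held 10 reads and chow library 3 held 140. Its log2 fold change was 1.42 (SE 0.95, edgeR adjusted p = 0.858). The exons of Becn1 overlap those of Cntd1 on the other strand over 29.6% of their length, so that its reads are uncertain without a known strand setting.

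Atg9a and Atg2a supply membrane, the first as a lipid scramblase in vesicles and the second as a bridge that transfers lipids to the growing sheet, and Wipi1 and Wipi2 read the phosphoinositide signal. Atg2a (chromosome 19, 6241478 to 6262304, GRCm38) was at 114, 88.8 and 88.5 CPM with the high-fat diet and at 76.2, 64.5 and 55.1 CPM with chow. Every high-fat diet library lay above every chow library. The log2 fold change was 0.57 (SE 0.25, interval 0.047 to 1.10), with an unadjusted p of 0.0350 and an adjusted p of 0.595 in edgeR. Wipi1 also did not overlap, from 9.33 to 13.7 CPM against 2.45 to 7.69 CPM (log2 fold change 0.94, SE 0.84). Wipi2 and Atg9a had log2 fold changes of 0.39 (SE 0.36) and -0.62 (SE 0.57). The exons of Atg9a share 41.8% of their length with the predicted gene Gm29253 on the same strand.

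The conjugation genes encode the protease Atg4b, which trims ATG8 proteins, the activating and transfer enzymes Atg7 and Atg3, and the Atg12, Atg5 and Atg16l1 chain that sets where lipidation happens. Atg3, the most abundant of them per length, was at 38.6, 24.2 and 32.1 CPM with the high-fat diet and at 25.8, 25.7 and 49.4 CPM with chow, which overlapped (log2 fold change -0.09, SE 0.40). Atg5 had the smallest p of the group. It was at 11.1, 4.48 and 3.94 CPM with the high-fat diet and at 25.6, 17.5 and 3.16 CPM with chow. The lowest of all 6 values was that of chow library 3, so that the diets overlapped, and the log2 fold change was -1.24 (SE 0.84, edgeR adjusted p = 0.865). The others had log2 fold changes of 0.64 for Atg4b, 0.18 for Atg7, -0.19 for Atg16l1 and -0.29 for Atg12. The group was thus split, with 2 positive and 4 negative values and a median of -0.14.

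The ATG8 proteins coat the autophagosome and bind the receptors. Per kilobase of the longest paired transcript the 5 genes had mean levels from 25.2 for Gabarapl2 to 30.7 for Map1lc3b. Over all annotated exons Map1lc3b would be at 14.98, below the other 4, so that its place among them depends on the length. Map1lc3a was at 23.7, 25.3 and 35.3 CPM with the high-fat diet and at 30.3, 33.7 and 24.5 CPM with chow, a log2 fold change of -0.07 (interval -0.91 to 0.77). Map1lc3b, whose protein is the usual marker of autophagosomes, was at 115, 67.7 and 58.8 CPM with the high-fat diet and at 66.5, 66.1 and 91.4 CPM with chow. High-fat diet library 1 was the highest and the other 5 libraries lay between 58.8 and 91.4 CPM (log2 fold change 0.11, interval -0.52 to 0.74). The ratio of Map1lc3a to Map1lc3b per length ran from 0.468 in high-fat diet library 1 to 1.37 in high-fat diet library 3, and the chow libraries lay between. Over all exons that ratio ran from 0.958 to 2.80. Gabarapl2 had the smallest p of the family, at 75.5, 43.5 and 32.4 CPM with the high-fat diet and at 50.1, 34.7 and 17.0 CPM with chow. These overlapped too (log2 fold change 0.57, SE 0.43, edgeR adjusted p = 0.899). Gabarap and Gabarapl1 had log2 fold changes of 0.30 (SE 0.36) and 0.26 (SE 0.29).

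Receptors tie cargo to the ATG8 proteins. Sqstm1 (chromosome 11, 50200152 to 50210820, GRCm38), which binds ubiquitinated proteins and is itself degraded by autophagy, was at 632, 578 and 375 CPM with the high-fat diet and at 917, 658 and 713 CPM with chow. All 3 high-fat diet values lay below all 3 chow values, though high-fat diet library 1 and chow library 2 were close. The means were 528 ± 135 and 763 ± 137 CPM (SD, n = 3 each), a log2 fold change of -0.53 (SE 0.20, interval -0.97 to -0.10). The unadjusted p was 0.0203 and the adjusted p 0.493 in edgeR. Its exons overlap those of Mrnip on the other strand over 20.5% of their length. Sqstm1 was the member with the smallest p. Nbr1, a second receptor for ubiquitinated cargo with a related domain structure, was at 71.2, 101 and 89.6 CPM with the high-fat diet and at 87.3, 79.5 and 45.2 CPM with chow, with a log2 fold change of the other sign (0.30, SE 0.29). Within each library Sqstm1 exceeded Nbr1 per length, by 7.50 to 15.9 times with the high-fat diet and by 14.8 to 28.3 times with chow, ranges that overlapped.

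Optn, a receptor for bacteria and mitochondria, was at 4.88, 7.23 and 17.1 CPM with the high-fat diet and between 3.39 and 3.96 CPM with chow. The diets did not overlap, but the high-fat diet values spread over more than 3 times and the log2 fold change of 1.38 had an SE of 0.96 (edgeR adjusted p = 0.876). Bnip3 and Bnip3l are mitophagy receptors on the outer mitochondrial membrane, both known as targets of hypoxia signalling. Bnip3 was scarce, at 0.130, 0.895 and 2.48 CPM with the high-fat diet and at 10.8, 1.63 and 0.976 CPM with chow. High-fat diet library 1 held 2 reads and chow library 1 held 172, so that the mean of the chow group came mostly from 1 library. The log2 fold change of -1.93 had an interval from -5.64 to 1.79. Exons of Bnip3 overlap those of Gm45507 on the other strand over 27.2% of their length, so that its reads are uncertain. Bnip3l was the more abundant of the pair per length in every library, with a ratio to Bnip3 from 3.13 to 35.4 in 5 libraries. In high-fat diet library 1, where Bnip3 had 2 reads, the ratio was 351 with an exact 95% counting interval from 96.9 to 2898. Bnip3l had a log2 fold change of 0.24 (SE 0.34).

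**Figure D3:**
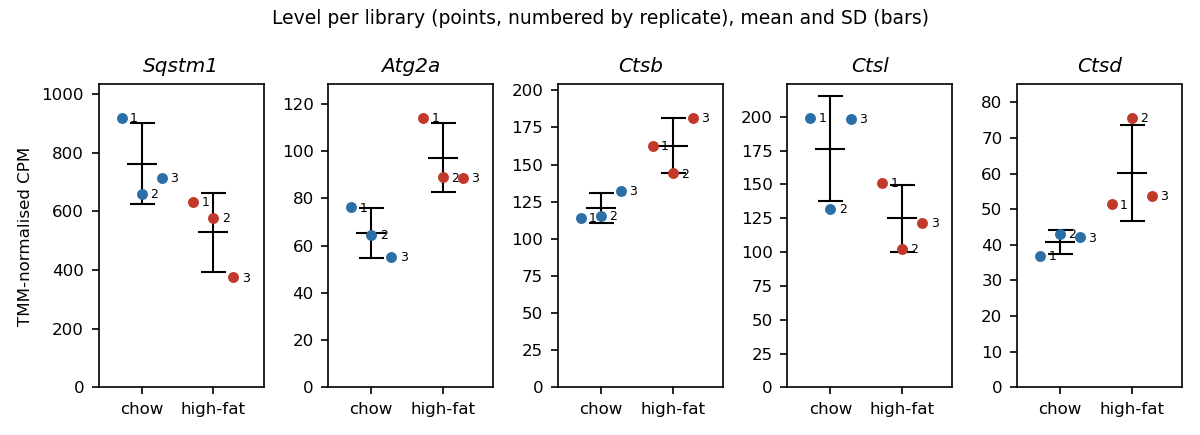
TMM-normalised CPM of Sqstm1, Atg2a, Ctsb, Ctsl and Ctsd in each library, numbered by replicate, with bars for the mean and SD of 3 libraries. Ctsb, Ctsd and Atg2a are higher in every high-fat diet library than in every chow library, Sqstm1 is lower, and the diets overlap for Ctsl.

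Tfeb and Tfe3 are helix-loop-helix transcription factors that mTORC1 keeps in the cytoplasm and that enter the nucleus to switch on lysosomal and autophagy genes, so that their messenger RNA level does not report their activity. Tfeb was at 27.7, 9.47 and 13.1 CPM with the high-fat diet and at 3.26, 15.04 and 4.77 CPM with chow. High-fat diet library 1 was the highest and chow library 2 the next, so the diets overlapped (log2 fold change 1.12, SE 0.77, edgeR adjusted p = 0.869). Tfe3 was at 38.0, 44.8 and 42.9 CPM with the high-fat diet and at 19.0, 44.1 and 37.2 CPM with chow, which overlapped as well (log2 fold change 0.33, SE 0.38). Tfe3 exceeded Tfeb per length in 5 of 6 libraries, the exception being high-fat diet library 1 with a ratio of 0.947, and in the others the ratio ran from 2.02 to 5.39. With the length of all annotated exons the ratio was 1.52 in high-fat diet library 1 and up to 8.65 in the others, so that the exception rests on the length used for Tfeb.

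Both factors bind an E-box with the core CACGTG, and the lysosomal gene network is known for a longer palindrome around it. RefSeq promoters of GRCm38.p6, from 250 bases before to 50 after the start site, were matched for 32 of the 39 members, leaving out Becn1, Atg12, Atg16l1, Map1lc3a, Bnip3l, Atp6v1h and Ctsb. These 32 had 37 windows in all, and a gene was counted if any of its windows held the motif. In 30 of the 37 the bases after the start site were found in a GENCODE transcript. The core was found in 11 of 32 (34.4%), against 8.09% of all 27025 genes in the table and 11.8% of the genes tested that have an entry. Of the lysosome members 6 of 10 held it, and of the autophagosome members 5 of 20. Among these, Ctsa, Ctsl and Atg7 held it near a start site inside the gene, as given below. The palindrome TCACGTGA, which contains the core, was found in 5 of 32 members (15.6%), in 1.12% of all genes in the table and in 2.19% of the genes tested that have an entry. The core was also found in 27.8% of other lysosomal hydrolases and membrane proteins, 26.1% of mTORC1 genes and its lysosomal regulators, 23.1% of other proton pump subunits and 11.5% of other autophagy genes. Each motif is its own reverse complement, so that a match on one strand is a match on both. A match describes the letters and does not show a binding site. The stretches below are the promoters of 6 lysosome members and of Atg3, the autophagosome member with the palindrome, shown to let the sites be compared. The other 21 members with an entry held no core in this window. Capitals mark the core or, where present, the whole palindrome.
Lamp1: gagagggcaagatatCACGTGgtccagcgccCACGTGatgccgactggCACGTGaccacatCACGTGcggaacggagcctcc
Mcoln1: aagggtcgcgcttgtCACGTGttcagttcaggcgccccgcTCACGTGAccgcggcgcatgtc
Ctsa: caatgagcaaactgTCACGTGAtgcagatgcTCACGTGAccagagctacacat
Ctsd: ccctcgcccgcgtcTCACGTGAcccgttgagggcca
Atp6v0d1: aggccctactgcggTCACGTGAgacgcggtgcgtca
Ctsl: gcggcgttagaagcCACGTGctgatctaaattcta
Atg3: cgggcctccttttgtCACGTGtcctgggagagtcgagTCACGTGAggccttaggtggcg

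The Lamp1 stretch (chr8:13159085-13159166, plus strand) held 4 cores, from position -61 to -15 relative to the start site. Those of Mcoln1 (chr8:3500433-3500494, plus strand) and Ctsa (chr2:164833746-164833798, plus strand) held 2 each. The stretches of Ctsd (chr7:142387905-142387940) and Atp6v0d1 (chr8:105566047-105566082), both on the minus strand, had their palindrome core at -98 and -3, and Ctsd had a further core at -245. Ctsl (chr13:64370736-64370770, minus strand) had a single core at -236, and Atg3 (chr16:45158720-45158778, plus strand) had 2. The remaining 4 members with a core were Atg5, Atg7, Bnip3 and Atg14, each with 1. For Ctsa, Ctsl and Atg7, and by a few bases for Atg5, the start site used lies inside the annotated gene. The Ctsl gene has its 5' end at 64370772, so its stretch lies within the gene. Those of Ctsa and Atg7 begin at 164832872 and 114643127, before the windows searched. The genes that share the palindrome had diet differences of both signs. Their log2 fold changes were 0.56 for Ctsd, 0.56 for Atp6v0d1, -0.09 for Atg3, -0.49 for Ctsa and -1.36 for Mcoln1, and none passed.

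On the lysosomal membrane, Lamp1 and Lamp2 form the protective sugar coat and Mcoln1 is the calcium channel that signals to Tfeb. Lamp2 was at 456, 421 and 438 CPM with the high-fat diet and at 409, 423 and 465 CPM with chow. It was the steadiest member, with a log2 fold change of 0.02 and an interval from -0.31 to 0.35. Lamp1 was at 62.6, 62.3 and 50.2 CPM with the high-fat diet and at 78.0, 59.2 and 53.6 CPM with chow, again overlapping (log2 fold change -0.12, interval -0.72 to 0.47). Lamp2 exceeded Lamp1 per length in every library, by 3.24 to 5.40 times. Mcoln1 was lower in mean with the high-fat diet, at 5.59, 7.74 and 3.29 CPM against 20.6, 16.2 and 6.03 CPM. Chow library 3 lay within the high-fat diet range, and the log2 fold change of -1.36 had an SE of 0.79 (edgeR adjusted p = 0.781).

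The proton pump acidifies the lysosome, with Atp6v0d1 in its membrane sector and Atp6v1h in the catalytic sector. Atp6v1h was at 28.9, 47.4 and 53.3 CPM with the high-fat diet and at 30.8, 42.3 and 20.3 CPM with chow. The diets overlapped, and the log2 fold change was 0.47 (SE 0.39, edgeR adjusted p = 0.925). Atp6v0d1 had one of 0.56 (SE 0.80), from 8.85 to 11.7 CPM against 3.50 to 12.3 CPM.

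Among the hydrolases, the cathepsins digest proteins. Ctsb (chromosome 14, 63122462 to 63145923, GRCm38), a cysteine protease, was at 163, 144 and 181 CPM with the high-fat diet and at 114, 116 and 132 CPM with chow. Every high-fat diet library lay above every chow library. For Ctsb the log2 fold change was 0.43 (SE 0.20, interval 0.0084 to 0.85), with an unadjusted p of 0.0462 and an adjusted p of 0.646 in edgeR. Ctsl (chromosome 13, 64361890 to 64370772), a cysteine protease of the same family, had a difference of the opposite sign, at 151, 102 and 122 CPM with the high-fat diet and at 199, 132 and 199 CPM with chow. High-fat diet library 1 lay above chow library 2, so that the diets overlapped. For Ctsl the log2 fold change was -0.50 (SE 0.23, interval -0.99 to -0.0066, unadjusted p = 0.0474, adjusted p = 0.647 in edgeR). The ratio of Ctsb to Ctsl per length, which does not depend on how libraries are scaled, was 0.448, 0.587 and 0.620 with the high-fat diet and 0.238, 0.365 and 0.277 with chow. The 2 diets did not overlap in this ratio. Over all exons it was 1.40, 1.84 and 1.94 with the high-fat diet and 0.745, 1.14 and 0.867 with chow, again without overlap. The pair was chosen after its values were seen, so no test was made.

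Ctsd, the main aspartic protease of the lysosome, was at 51.3, 75.5 and 53.7 CPM with the high-fat diet and at 36.9, 43.1 and 42.1 CPM with chow. The diets did not overlap, and the log2 fold change was 0.56 (SE 0.30, interval -0.076 to 1.20, unadjusted p = 0.0796, adjusted p = 0.729 in edgeR). Ctsz, an exopeptidase, had a log2 fold change of 0.36 (SE 0.30). The other hydrolases were scarce. Ctsa, which stabilises the sialidase Neu1, Neu1 itself, and Hexa, which trims gangliosides, had log2 fold changes of -0.49, -0.38 and 0.40 with SE from 0.85 to 1.07. Exons of Ctsb overlap Fdft1 on the other strand over 16.3% of their length, those of Ctsd overlap Gm49369 on the same strand over 31.5%, and those of Ctsl overlap Gm47123 on the other strand over 28.2%, so that these reads are uncertain. Fdft1 is an enzyme of sterol synthesis, and its part in the Ctsb count was not tested. Exons of Ctsa overlap Pltp over 13.5% and Neurl2 over 8.82% of their length, both on the other strand.

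Set against each other, the autophagosome and lysosome members did not separate. The median log2 fold change was 0.24 over 25 autophagosome members, 16 positive and 9 negative, and 0.19 over 12 lysosome members, 7 positive and 5 negative. The difference, lysosome minus autophagosome, was -0.052. It ran from -0.27 to 0.094 over the alternatives of scaling, filter, test and libraries. The lysosome median log2 fold change was -0.049 with limma-voom and -0.0460 with the replicate number as a block, so that its sign was not stable. The diets did not overlap for 5 of the 25 (20%) and 2 of the 12 (16.7%), against 15.3% of all genes tested.

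Library by library, a summary of the members was taken as the median of log2 CPM minus each gene's mean over the 6 libraries. For the autophagosome members it was 0.38, 0.12 and 0.03 with the high-fat diet and 0.09, 0.05 and -0.32 with chow. High-fat diet library 1 and chow library 3 were thus the extremes, and the other 4 libraries lay between 0.03 and 0.12. For the lysosome members it was 0.07, 0.34 and -0.13 with the high-fat diet and -0.14, -0.04 and -0.15 with chow, where high-fat diet library 2 was the highest and the other 5 lay between -0.15 and 0.07. Over all genes tested the same median lay between 0.01 and 0.13 in every library. The lysosome value minus the autophagosome value was -0.31, 0.22 and -0.15 with the high-fat diet and -0.23, -0.09 and 0.17 with chow, and the diets were intermixed.

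**Figure D4:**
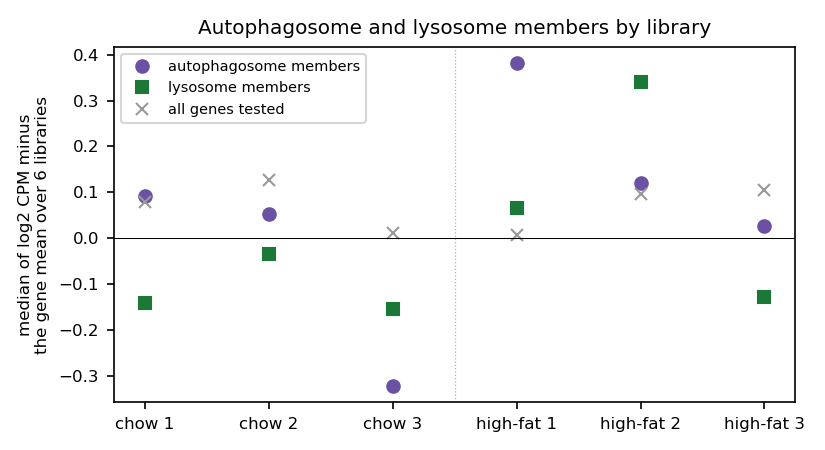
Median over members of log2 CPM minus the gene's mean over the 6 libraries, for 25 autophagosome members (circles), 12 lysosome members (squares) and all genes tested (crosses), by library. The autophagosome median is lowest in chow library 3 and highest in high-fat diet library 1, and the lysosome median is highest in high-fat diet library 2.

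Other genes of the pathway were read from 4 further lists. Of 46 other lysosomal hydrolases and membrane proteins 42 were tested and 0 passed in edgeR, while at an unadjusted p under 0.05 there were 3 higher and 2 lower, together 11.9% against 7.65% of all genes tested (3.7% higher, 3.95% lower). Psap, the precursor of the saposins that help hydrolases reach their lipid substrates, came closest. It was at 313, 342 and 365 CPM with the high-fat diet and at 179, 205 and 184 CPM with chow, and every high-fat diet library lay well above every chow library. The log2 fold change was 0.85 (SE 0.17), with an edgeR adjusted p of 0.0592. Psap passed with DESeq2 (adjusted p = 6.54e-05), with limma-voom (adjusted p = 0.0112) and with no filter (adjusted p = 0.00532). It did not pass in edgeR with the 2 other scalings, a filter of 1 CPM or the replicate number as a block (adjusted p from 0.0568 to 0.0626). Nor did it pass in any of the 6 fits with 1 library left out, where the log2 fold change ran from 0.80 to 0.91. Npc1, the cholesterol exporter of the lysosome, was at 250, 198 and 201 CPM against 145, 116 and 154 CPM, and did not overlap either (log2 fold change 0.64, SE 0.20, edgeR adjusted p = 0.318). Laptm4b, a lysosomal membrane protein, was at 53.3 against 28.7 CPM in mean (log2 fold change 0.90, SE 0.34), and Gla, which cleaves galactose from glycolipids, at 7.14 against 22.4 CPM (-1.65, SE 0.68), with edgeR adjusted p of 0.475 and 0.569. The median of the list was 0.13.

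Of 30 other autophagy genes, all tested, 0 passed and 1 had an unadjusted p under 0.05 (3.33%, against 7.65% of all genes tested), with a median of 0.18. That was Atg4a, another ATG8 protease, at 7.67, 1.66 and 1.13 CPM with the high-fat diet and at 0.126, 0 and 0.230 CPM with chow, and no fold is given because the chow libraries lay near the floor of 3 reads. Atg101, a partner of Atg13 in the Ulk complex, was at 8.91 to 9.79 CPM against 0 to 2.45 CPM (edgeR adjusted p = 0.684). Nrbf2, a regulator of the Becn1 complex, was at 9.94 against 2.81 CPM in mean, and Vmp1, a scramblase needed for autophagosome formation, at 50.3 against 36.4 CPM (edgeR adjusted p = 0.747 and 0.876).

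Of 18 other proton pump subunits 15 were tested, and 0 passed or had an unadjusted p under 0.05 in edgeR, with a median of 0.07. The smallest p were those of Atp6v1d (log2 fold change 1.33, SE 0.71), Atp6v0e (0.66, SE 0.41), Atp6v1a (0.32, SE 0.23) and Atp6v0c (0.32, SE 0.25). Of 25 genes of mTORC1 and its lysosomal regulators 23 were tested, and 0 passed or had an unadjusted p under 0.05 in edgeR, with a median of -0.11. Here the smallest p were those of Rragd, Tsc1, Lamtor2 and Fnip1. Rragd, a Rag GTPase and a known Tfeb target, was at 33.8 against 16.5 CPM in mean (log2 fold change 1.03, SE 0.54). Tsc1, which restrains mTORC1, was at 17.1 against 34.3 CPM (-1.01, SE 0.53). Lamtor2, at 0.512 against 3.26 CPM in mean, overlapped between diets. It was at 0.195, 0.640 and 0.701 CPM with the high-fat diet and at 5.59, 4.20 and 0 CPM with chow. Fnip1, a partner of folliculin, had a log2 fold change of -0.16 (SE 0.16). DESeq2 and limma-voom called 0 genes in these last 3 lists.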

How the data were processed

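The deposited values were whole-number counts of reads per Entrez gene ID, 1 file per library, not normalized. Bowtie2, featureCounts and the builds GRCm38 and mm10 are named, per the submitters' processing notes. The sources used here give no versions, strand setting or handling of multiply mapped reads. Symbols and promoters came from RefSeq GRCm38.p6, and lengths and overlaps from GENCODE on the same build. Genes were kept by filterByExpr (minimum count 10), which all 39 members passed, scaled by TMM, and tested for diet with edgeR 4.0.16 (glmQLFit, glmQLFTest, two-sided) in R 4.3.3, with p-values adjusted by Benjamini-Hochberg over all 13202 genes. A gene was called at an adjusted p under 0.05. Intervals are 95% intervals from the SE, taken as |log2 fold change| over the root of the F statistic. The floor of 3 counts was 0.165 to 0.201 CPM and covers counting error only. DESeq2 1.42.0 and limma 3.58.1 served as alternatives. The test was checked on data simulated from its own fitted model, which cannot show whether that model suits these libraries.

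The members, the lists and the tests were chosen with earlier results of these data known. Every member was named. Library values were given for members with the smallest p or the highest level per length in their role and for a fixed set of well-known genes. Nbr1, Optn and Wipi1 were added after their values were seen. From each further list up to 4 genes with the smallest p were named.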

Additional observations from a re-analysis of the deposited data

How the results depend on the processing

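No alternative called a member: the count was 0 under 2 other scalings, 2 other filters, DESeq2, limma-voom, the replicate block, an adjusted p under 0.1 and every fit with libraries left out, and the lowest adjusted p of any member was 0.142 (Sqstm1). Among other lysosomal genes 1 (Psap) passed with no filter, with DESeq2 and with limma-voom. It did not pass with the other scalings, the filter of 1 CPM, the replicate block or 1 library left out. The lysosome median log2 fold change was -0.049 with limma-voom, -0.0460 with the replicate block and -0.031 to 0.39 with 1 library left out, and Hexa was -0.56 with limma-voom and -0.30 with the replicate block. Over fits without 1 library, or without high-fat diet library 1 and chow library 3 together, the median of all members ran from 0.059 (both left out) to 0.36. Over the same fits the log2 fold change took both signs for Ulk1 (-0.11 to 0.42), Ulk2 (-0.41 to 0.23), Atg3 (-0.25 to 0.30), Atg7 (-0.15 to 0.34), Atg12 (-0.59 to 0.13), Atg16l1 (-0.60 to 0.26), Map1lc3a (-0.26 to 0.049), Map1lc3b (-0.23 to 0.30), Gabarapl2 (-0.15 to 0.97), Bnip3l (-0.27 to 0.48), Lamp1 (-0.28 to 0.054), Lamp2 (-0.014 to 0.077), Ctsa (-0.93 to 0.17), Hexa (-0.57 to 0.95) and Neu1 (-0.85 to 0.68). The other 24 members kept their sign throughout. The cause of these shifts was not tested. The labels do not say that equal replicate numbers share anything. Deviations from the diet mean correlated at 0.0245, 0.0346 and -0.0261 between libraries of equal number, and at -0.0556 to 0.0332 between the others. With few libraries these values cannot settle whether the samples were paired. With the replicate block 45 genes were called in all, against 34 without it, with 0 members among them. The SE was at least 0.57 for the 14 members under 20 CPM, and how far depth or variation between libraries sets it was not tested. The length over all exons, an alternative chosen after seeing the data, changed the ratios between genes as given beside them, and the ratio of Lamp2 to Lamp1 was then 2.32 to 3.86.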
